A study of Mus musculus with 9 samples.

Results

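Sound is passed from the inner hair cell to the auditory nerve at the ribbon synapse, where a dense ribbon holds synaptic vesicles beside calcium channels. Depolarisation opens the channels, calcium triggers fusion of vesicles, and the glutamate that they release excites the nerve fibre. The genes described here cover the steps of that sequence and were taken as the 5 symbols Otof, Slc17a8, Cabp2, Cacna1d and Bsn, found by Ensembl identifier among the 51912 genes of the tables. Otof encodes otoferlin, the calcium sensor of vesicle release in hair cells. Slc17a8 encodes the transporter that fills their vesicles with glutamate. Cacna1d encodes the pore of their L-type calcium channel, Cabp2 a calcium-binding protein that modulates that channel, and Bsn the large scaffold bassoon, which anchors the ribbon to the membrane. Loss of Otof, Slc17a8 or Cacna1d is known to cause deafness.

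Mouse cochleae were taken at postnatal day 3 for RNA-seq, and 3 libraries were made for each of 3 genotypes (9 in all). The POU-domain factor Pou4f3 is needed for hair cells to mature and survive. Its mutant allele is written Δ, and the labels do not describe the deletion. By the sample titles the groups were Pou4f3(Δ/Δ), called HOM, Pou4f3(Δ/+), called HET, and Pou4f3(+/+), called WT. In all 9 samples the genotype characteristic named another genotype than the title, and every direction given here depends on the titles. The labels do not say how many animals gave each library, so p-values measure the spread between these samples, which may be technical. The labels give neither strain nor sex and name no Cre line or transgene.

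Values are FPKM, fragments per kilobase of gene scaled to library depth, and the depth recovered from them was 14.3 to 17.4 M fragments per library. Each HOM library listed 1137 genes, and other genes were not analysed there. None of the 1137 had overlapping HOM and WT values (100% apart), so listing went by that contrast. Otof and Cacna1d were listed. Slc17a8, Cabp2 and Bsn were not, which is not a level of 0. Pou4f3 itself was at 5.92, 1.36 and 9.39 FPKM in HOM, at 21.74 to 25.56 FPKM in HET and at 24.49 to 26.97 FPKM in WT, lowest in the libraries titled Δ/Δ; as the deletion is not described, this level checks the titles only in part. Of 10 hair cell markers, 8 were listed in HOM, as were 7.35% of the 15391 genes tested in HET against WT. The summed level of these 8 was 29.4 to 53.2 FPKM in HOM, against 108.3 to 123 FPKM in HET and 115.4 to 121.3 FPKM in WT. Of 8 supporting cell markers 3 were listed, with sums of 1192 to 1317 FPKM in HOM, 798.5 to 1021 FPKM in HET and 878.5 to 985.2 FPKM in WT. Of 3 erythroid markers 2 were listed, with sums of 25.7 to 36.2 FPKM in HOM, 35.7 to 77.1 FPKM in HET and 67.6 to 81.1 FPKM in WT. These sums hold only genes already apart from WT, so they do not measure cell content. Single genes gave the largest part in HOM, Myo6 (mean 23.73 FPKM) for hair cells and Epyc (mean 988.5 FPKM) for supporting cells. The part of these cell types in the results below was not tested. In bulk tissue, fewer hair cells and less RNA per hair cell cannot be told apart.

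HET 1 and WT 3 stood apart from the other HET and WT libraries. Across expressed genes, Pearson's r of log2(FPKM + 1) was 0.985 between HET 1 and WT 3, but 0.953 and 0.956 between HET 1 and the other HET libraries and 0.965 and 0.975 between WT 3 and the other WT libraries. These r are across genes, which are not independent replicates. In genes with over 10 kb of exon (1296 genes), the median difference from the mean of the 6 libraries was -0.21 in HET 1 and -0.15 in WT 3 (log2 scale). It was between 0.03 and 0.14 in the other 4 libraries. In the 3687 genes with up to 2 kb of exon it was 0.16 in HET 1 and 0.12 in WT 3, and between -0.08 and -0.01 in the other 4. Summed over 6 markers, Schwann and satellite glia were also at their highest there, at 600.4 FPKM in HET 1 and 551 FPKM in WT 3, against 295.8 to 424.9 FPKM in the other 4 libraries. So were the summed markers of spiral ganglion neurons (105.1 FPKM in HET 1 and 111.2 FPKM in WT 3) and erythroid cells (139.6 and 159.3 FPKM). The sum of all 10 hair cell markers was highest there too (213.7 and 246 FPKM). Sums of supporting cell, brain, macrophage and skeletal muscle markers were not.

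**Figure D1:**
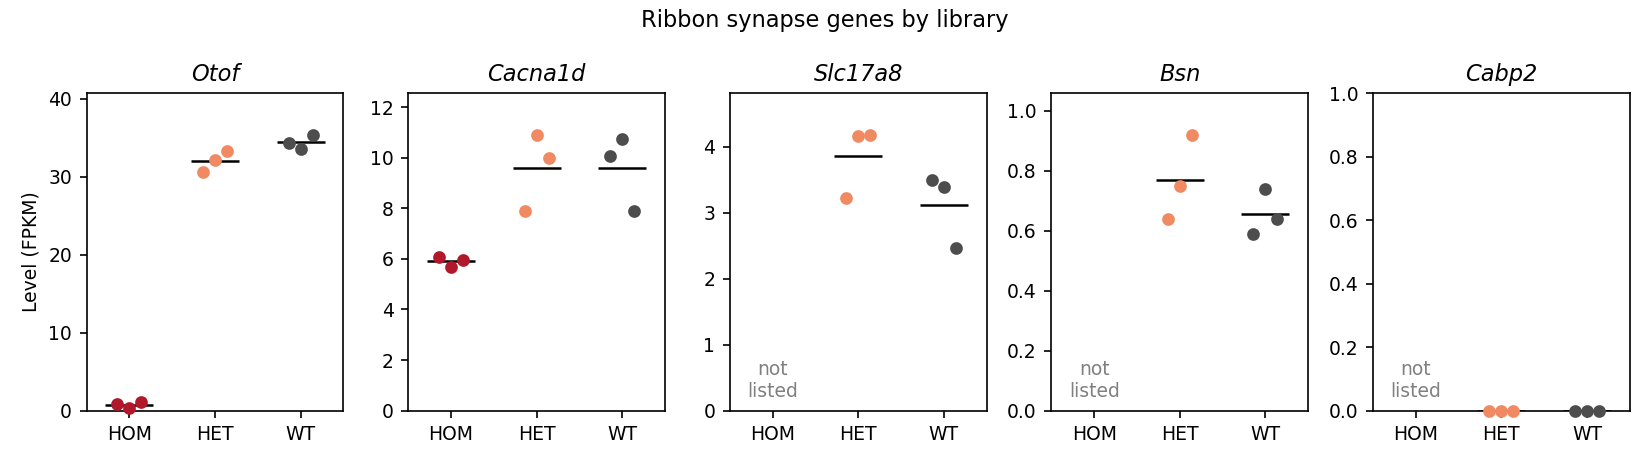
Level (FPKM, linear axis from 0) of each gene in each library of the HOM, HET and WT groups. Points are libraries in the order of their replicate numbers and bars are means of 3; Otof lies at or below 1.11 FPKM in HOM and at or above 30.56 FPKM elsewhere, while Slc17a8, Bsn and Cabp2 are not listed in HOM.

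Of the pair listed in HOM, the release sensor differed most. Otof (ENSMUSG00000062372, GRCm38 chromosome 5, 30367062 to 30461932, minus strand) was at 0.87, 0.29 and 1.11 FPKM in the HOM libraries. It was at 30.56, 32.1 and 33.26 FPKM in HET and at 34.36, 33.58 and 35.34 FPKM in WT. Each HOM library was thus far below each library of the other groups, with HOM 2 lowest and HOM 3 highest among the mutants. All listed genes were apart from WT, so for WT only the size of the gap is read here. The HOM levels rested on about 98, 35 and 138 fragments, and their exact Poisson intervals (95%, counting error only) were 0.703 to 1.055, 0.202 to 0.404 and 0.931 to 1.31 FPKM. The interval of HOM 2 did not meet those of HOM 1 and HOM 3, so the mutant libraries differed beyond counting error. As a share of the WT mean, Otof was at 2.20% ± 1.23 in HOM (SD, n = 3).

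On the log2(FPKM + 1) scale, which understates the change of low genes, Otof fell in HOM by 4.36 relative to WT (SE 0.18, 95% interval -4.79 to -3.94, limma adjusted p = 3.03e-05). Against HET it fell by 4.26 (SE 0.18, limma adjusted p = 3.51e-05). Both tested members of the synapse set, Otof and Cacna1d, were called lower in HOM against WT, where 65.4% of 1109 listed genes were, and 93.1% were called in either direction. Since listing used that contrast, nothing is read from this count. The p-values and intervals of HOM against WT, here and below, likewise describe genes already chosen by that contrast. Against HET, 36.3% of 1090 listed genes were called lower and 44.5% in either direction, and again both members were lower. Libraries of HOM lay wholly below those of WT in 69.1% of listed genes, and wholly below those of HET in 46.2%. The same HOM libraries serve both comparisons, and 61.7% of the 1137 listed genes were apart from HET. The p-values against HET, here and below, are thus not free of the choice of listed genes either.

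The calcium channel fell much less. Cacna1d (ENSMUSG00000015968, chromosome 14, 30039939 to 30491455, minus strand) was at 6.09, 5.68 and 5.96 FPKM in HOM. It was at 7.91, 10.9 and 9.97 FPKM in HET and at 10.08, 10.75 and 7.90 FPKM in WT. The HOM libraries lay below the others without overlap, and close together. All listed genes were apart from WT, and in 46.2% of 1090 listed genes HOM lay wholly below HET. Within HET and WT the low libraries were HET 1 and WT 3, both near 7.9 FPKM. With 12.621 kb of exon Cacna1d is a long gene. Its difference from the 6-library mean was -0.24 in each of these libraries. The medians of long genes given above, -0.21 in HET 1 and -0.15 in WT 3, had the same sign. The part of exon length, or of the marker sums that were highest in HET 1 and WT 3, in its level was not tested. These are levels in bulk tissue, and which cells gave the Cacna1d RNA was not tested.

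In limma, Cacna1d fell in HOM by 0.60 relative to WT (SE 0.11, 95% interval -0.86 to -0.35, adjusted p = 0.00584) and by 0.61 against HET (SE 0.11, adjusted p = 0.00936). Its HOM level was 61.7% ± 2.19 of the WT mean (SD, n = 3). Without WT 3 the fall against WT was 0.72 (adjusted p = 0.0042), and without HET 1 the fall against HET was 0.73 (adjusted p = 0.00462). Without HET 3 the call against HET was lost (-0.58, adjusted p = 0.0528). Median-ratio scaling moved the median change of all listed genes in HOM against WT from -0.22 to -0.05, and Cacna1d then changed by -0.42 (adjusted p = 0.0147). Scaling factors of HOM comparisons came from listed genes only, and all of these were apart from WT. Such scaling takes the listed genes as level on the whole. Results under it, here and below, are therefore no independent check of the calls. Dcp1a, a gene of the opposite strand that overlaps Cacna1d over 11921 bp and was chosen after its values were seen, was at 13.2 FPKM on average in HET and 12.5 FPKM in WT and was not analysed in HOM. No source used here says whether counting used strand, so reads of this overlap cannot be told apart.

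The RefSeq promoter table (build GRCm38.p6) gives a pair of start sites for Cacna1d, and the gene's FPKM joins the transcripts of both. The sequences run from 250 bases before to 50 after each start, and are shown because the channel gene is the member that fell in part. Capitals mark CANNTG (the E-box, bound by basic helix-loop-helix factors such as Atoh1), TATAAA and TAATTA (a core found in sites of many homeodomain factors), searched on both strands. TATAAA and TAATTA were in 13.6% and 5.29% of the 32851 promoters of this length, and CANNTG in 72.3%.
Cacna1d upstream start, chr14:30491107-30491406, minus strand: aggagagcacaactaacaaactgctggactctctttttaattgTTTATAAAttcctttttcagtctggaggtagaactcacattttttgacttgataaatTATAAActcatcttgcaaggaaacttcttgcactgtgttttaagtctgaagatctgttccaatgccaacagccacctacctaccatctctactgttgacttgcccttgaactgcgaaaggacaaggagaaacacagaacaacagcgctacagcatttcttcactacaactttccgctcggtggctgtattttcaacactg
Cacna1d internal start, chr14:30353437-30353736, minus strand: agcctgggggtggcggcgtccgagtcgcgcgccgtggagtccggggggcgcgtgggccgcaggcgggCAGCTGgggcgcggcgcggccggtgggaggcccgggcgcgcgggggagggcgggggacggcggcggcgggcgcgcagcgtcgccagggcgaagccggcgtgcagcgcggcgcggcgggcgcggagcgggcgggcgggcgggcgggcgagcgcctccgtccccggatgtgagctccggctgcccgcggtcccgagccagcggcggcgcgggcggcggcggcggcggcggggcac
The upstream window had a GC content of 40.3% and 3 TATAAA matches on the strands together, a pair of them overlapping in one run of capitals, and no CANNTG. The internal window had a GC content of 87.3%, 1 CANNTG and no TATAAA. Neither held TAATTA. A match, or its absence, describes these letters only.

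Within libraries, the level of Otof relative to Cacna1d was lower in HOM. There were 0.143, 0.0511 and 0.186 FPKM of Otof per FPKM of Cacna1d in HOM, against 2.95 to 3.86 in HET and 3.12 to 4.47 in WT. Otof was also low in HOM relative to Myo7a, a motor protein gene of hair cells. It was at 0.211, 0.156 and 0.201 FPKM per FPKM of Myo7a in HOM, at 3.11 to 3.75 in HET and at 3.69 to 4.28 in WT. Per FPKM of Myo7a, Otof varied little between the HOM libraries, although Myo7a itself was at 4.12, 1.86 and 5.53 FPKM there. Cacna1d was at 1.48, 3.05 and 1.08 FPKM per FPKM of Myo7a in HOM, against 0.931 to 1.104 in HET and 0.825 to 1.257 in WT. HOM 1 and HOM 2 were above both ranges, HOM 2 by far the most, and HOM 3 was within them. Cacna1d itself was at 5.68 to 6.09 FPKM in HOM, so the spread of this ratio is mostly that of Myo7a. Which cells gave the RNA of each gene was not tested. These ratios are given without a test, since listing in HOM went by the contrast with WT.

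**Figure D2:**
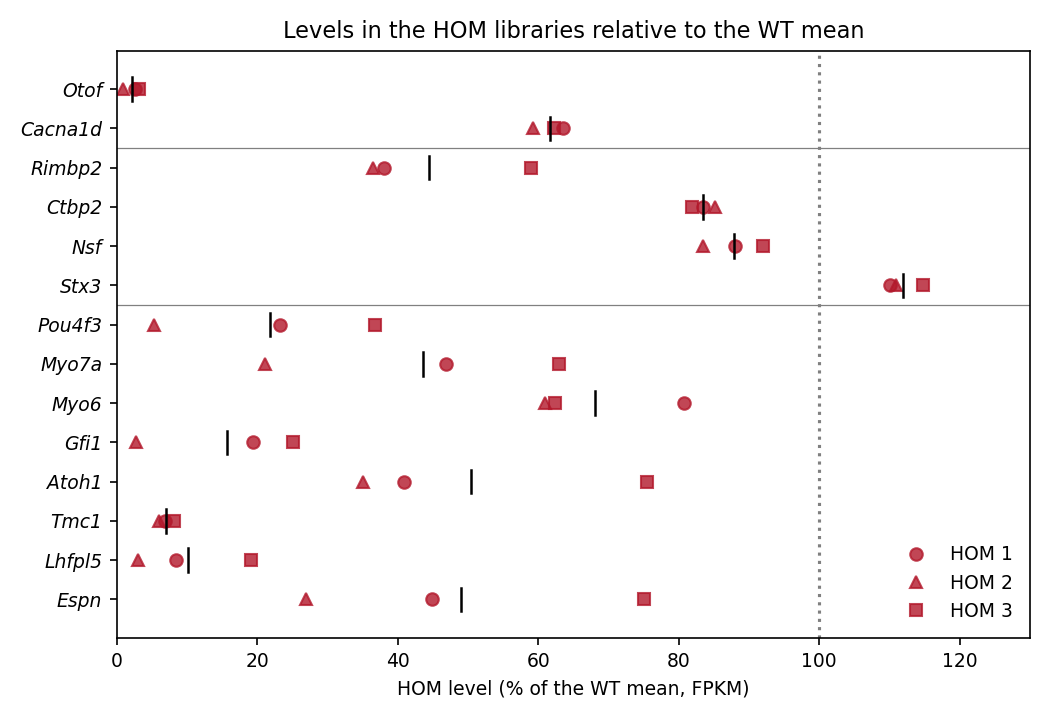
HOM level of each gene listed in HOM as a percentage of the WT mean (FPKM), for the ribbon synapse genes (top), 4 genes of the wider transmission list (middle) and the listed hair cell markers (bottom). Symbols are the 3 HOM libraries and bars their means; Otof averages 2.20% and Cacna1d 61.7% of WT, and HOM 2 is lowest for Otof and Cacna1d.

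The hair cell markers listed in HOM ranged widely. The mechanotransduction gene Tmc1 was at 7.03% ± 1.01 of the WT mean in HOM (SD, n = 3), its partner Lhfpl5 at 10.2% ± 8.24 and the transcription factor Gfi1 at 15.8% ± 11.6. Myo7a was at 43.6% ± 21.1, the bundling protein gene Espn at 49.02% ± 24.3, the hair cell fate factor Atoh1 at 50.5% ± 21.9 and the motor gene Myo6 at 68.1% ± 10.98. Otof thus had the lowest mean of the 8 markers and 2 synapse genes listed, and Cacna1d stood between Atoh1 and Myo6. Since listing went by the contrast with WT, these percentages are no sample of hair cell genes. In 7 of the 8 markers, as in Otof, HOM 2 was lowest and HOM 3 highest; Myo6 had HOM 1 highest, as did Cacna1d.

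A gene next to Otof also fell. Drc1, a dynein regulatory complex gene, ends 366 bp from the end of Otof on the opposite strand, and was named after its values were seen. It was at 1.09, 0.22 and 0.80 FPKM in HOM, against 1.73 to 1.87 FPKM in HET and 1.68 to 1.71 FPKM in WT. In limma it fell in HOM by 0.70 relative to WT (SE 0.19, adjusted p = 0.0183) and by 0.75 relative to HET (SE 0.20, adjusted p = 0.0253). Among listed genes, 65.4% were called lower against WT and 36.3% against HET. No source used here says whether counting used strand, and whether reads of Otof were counted in Drc1 was not tested.

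The vesicular glutamate transporter could be compared in HET and WT only. Slc17a8 (ENSMUSG00000019935, chromosome 10, 89574020 to 89621253, minus strand) was at 3.22, 4.16 and 4.18 FPKM in HET, against 3.49, 3.39 and 2.46 FPKM in WT. A pair of HET libraries lay above every WT library, HET 1 lay within the WT range, and the lowest value was that of WT 3. The difference was 0.24 on the log2(FPKM + 1) scale (SE 0.14, 95% interval -0.10 to 0.59, limma adjusted p = 0.9998), and it was 0.22 without HET 1 and WT 3 together (adjusted p = 0.291). It was 0.12 without WT 3 alone and 0.34 without HET 1 alone. With 4.72 kb of exon, Slc17a8 was at -0.36 relative to the 6-library mean in WT 3, where the median gene of 2 to 5 kb was at 0.08. The part of exon length in its level was not tested.

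A pair of start sites is also listed for Slc17a8, and both windows are shown because this is the gene with the largest HET and WT difference in the set. Capitals mark the same motifs.
Slc17a8 upstream start, chr10:89621200-89621499, minus strand: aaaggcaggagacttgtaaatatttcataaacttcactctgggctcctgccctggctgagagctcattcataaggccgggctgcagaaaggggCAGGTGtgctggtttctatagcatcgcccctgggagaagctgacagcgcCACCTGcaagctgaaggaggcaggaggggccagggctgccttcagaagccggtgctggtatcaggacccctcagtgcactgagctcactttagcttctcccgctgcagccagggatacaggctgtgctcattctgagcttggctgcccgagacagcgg
Slc17a8 internal start, chr10:89599766-89600065, minus strand: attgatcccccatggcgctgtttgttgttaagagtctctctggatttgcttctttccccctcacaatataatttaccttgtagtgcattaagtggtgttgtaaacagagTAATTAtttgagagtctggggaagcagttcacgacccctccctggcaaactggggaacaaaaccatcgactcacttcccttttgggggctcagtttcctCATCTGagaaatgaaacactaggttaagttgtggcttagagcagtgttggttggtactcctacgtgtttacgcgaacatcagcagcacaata
The upstream window had 2 CANNTG and no TAATTA, and the internal window had 1 of each. The table holds entries for 4 of the 5 genes, without Otof.

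The ribbon anchor was at a low level. Bsn (ENSMUSG00000032589, chromosome 9, 108096022 to 108190384, minus strand) was at 0.64, 0.75 and 0.92 FPKM in HET, against 0.59, 0.74 and 0.64 FPKM in WT, and the groups overlapped. With 15.938 kb of exon, these levels still rested on 154 to 228 fragments per library. Though Bsn is a long gene, its difference from the 6-library mean was only -0.06 in HET 1 and in WT 3. It was lowest in WT 1, at -0.105. Bsn did not reach 1 FPKM in any of the 6 libraries and was not in the main fit; in a fit without that filter its difference was 0.09 (SE 0.11, 95% interval -0.17 to 0.36, limma adjusted p = 1). That value was 0.03 without HET 3, 0.15 without HET 1 and 0.19 with a pseudocount of 0.1. Bassoon is also a protein of conventional synapses, and 10 markers of spiral ganglion neurons, the cells that hair cells drive, summed to 67.2 to 105.1 FPKM in HET and 46.7 to 111.2 FPKM in WT. They were lowest in WT 1, where Bsn was lowest, but highest in WT 3 and HET 1, where Bsn was not. None of the neuron markers was listed in HOM. Their part in Bsn was not tested.

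Cabp2 (ENSMUSG00000024857, chromosome 19, 4081578 to 4087340, plus strand) was listed at 0 in each of the 6 HET and WT libraries. Its neighbour Cdk2ap2, a gene of most cell types that was named after its values were seen, was also listed at 0 in all 6. In all, 3727 of 21870 protein-coding genes (17.04%) were at 0 in these 6 libraries. The cause was not tested, and the 0 of Cabp2 is given as a listed value and not as a level in hair cells.

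The order of levels, which FPKM allows because it is per length, was the same in HET and WT. Otof had the highest level, followed by Cacna1d, Slc17a8 and Bsn, and each neighbouring pair in this order was separated without overlap in each group. In HET the means were 31.97 ± 1.35, 9.59 ± 1.53, 3.85 ± 0.549 and 0.770 ± 0.141 FPKM (SD, n = 3), and in WT 34.4 ± 0.882, 9.58 ± 1.49, 3.11 ± 0.568 and 0.657 ± 0.0764 FPKM (SD, n = 3). In HOM only Otof and Cacna1d were listed, and there Otof was below Cacna1d in each library.

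The comparison of HET with WT, the one that the series names, asks about 1 mutant allele. Otof was lower in each HET library (30.56 to 33.26 FPKM) than in each WT library (33.58 to 35.34 FPKM), a pattern seen in 3.12% of the 15391 genes tested. The difference was -0.10 (SE 0.07, 95% interval -0.27 to 0.06, limma adjusted p = 0.9998). That interval excludes a fall of the size seen in HOM. Cacna1d was level in the means, at 9.59 FPKM in HET and 9.58 FPKM in WT (0.00184, 95% interval -0.36 to 0.36, adjusted p = 0.9998). None of the 3 members tested passed limma's threshold (0), nor did any of the 15391 genes (0, 0%), of which 266 (1.73%) had an unadjusted p under 0.05.

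**Figure D3:**
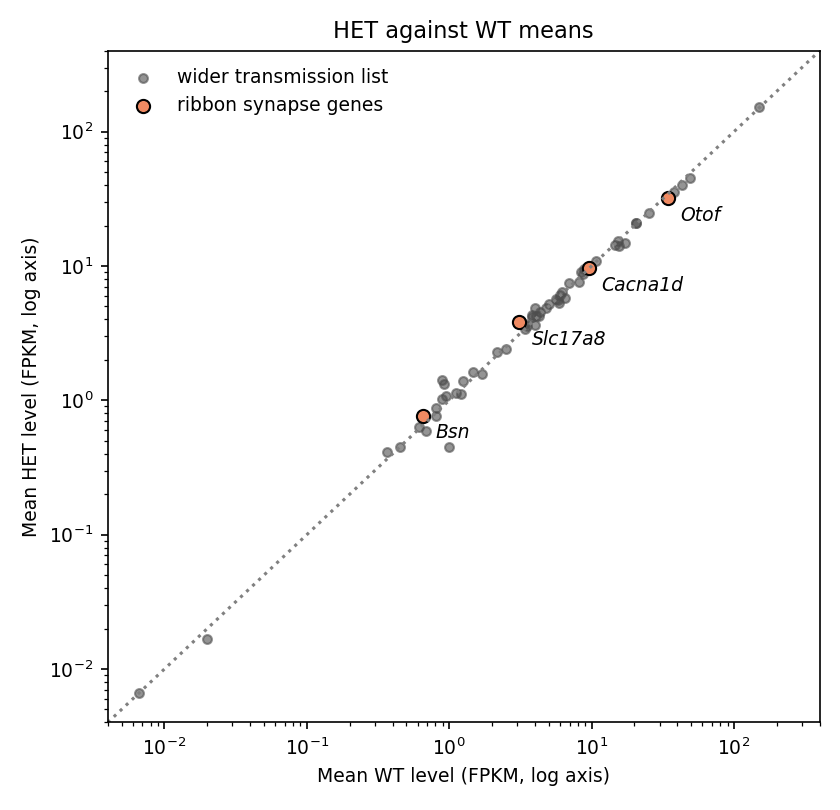
Mean HET level against mean WT level (FPKM, both axes logarithmic, 3 libraries in each mean) for Otof, Cacna1d, Slc17a8 and Bsn and for the genes of the wider transmission list above 0 in both groups. The dotted line marks equal levels; the 4 named genes lie close to it, with Slc17a8 at 3.85 FPKM in HET and 3.11 FPKM in WT.

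**Figure D4:**
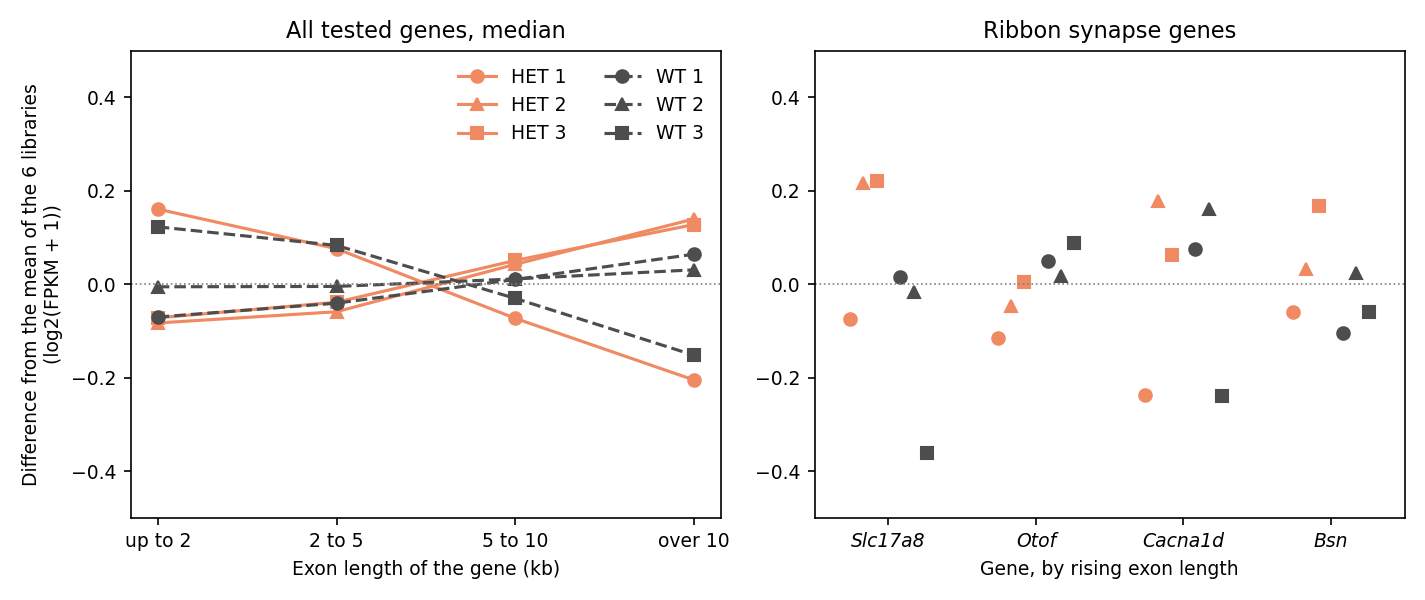
Left, the median difference of each HET and WT library from the mean of the 6 libraries (log2(FPKM + 1)) in tested genes grouped by exon length; right, the same difference for the 4 ribbon synapse genes above 0. HET 1 and WT 3 are the lowest libraries for genes over 10 kb, at -0.21 and -0.15, and for Cacna1d, at -0.24 each. Bsn, also over 10 kb, is lowest in WT 1, at -0.105.

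The wider list held 60 genes of the ribbon, the active zone, calcium channel subunits, vesicle release, glutamate transport and glutamate receptors, 3 of them found by an older symbol. In HET against WT 49 were tested, 0 were called and 0 had an unadjusted p under 0.05; 31 were higher and 18 lower, with a median of 0.03, against 0.00105 over all genes tested. The lowest p belonged to Cacna2d3, an auxiliary calcium channel subunit (0.18), Pclo, the bassoon relative piccolo (0.35), and Cplx2, a complexin of vesicle release (-0.13), each with a limma adjusted p = 0.9998. Leaving out single libraries gave 0.10 (without WT 2) to 0.27 (without WT 3) for Cacna2d3 and -0.20 (without HET 1) to -0.08 (without HET 3) for Cplx2. Pclo was at 0.54 without HET 1 and 0.22 without WT 3, at 0.61 with a pseudocount of 0.1, and under the filter without HET 2, HET 3 or WT 2. Pclo was at 0.80, 1.78 and 1.67 FPKM in HET, against 0.84, 1.27 and 0.56 FPKM in WT, with the low values again in HET 1 and WT 3 and also in WT 1. Cabp7, a relative of Cabp2 that was under the filter, was at 0.54, 0.31 and 0.49 FPKM in HET, against 0.80, 0.91 and 1.28 FPKM in WT, without overlap (-0.46 in the fit without the filter, limma adjusted p = 1). These levels rested on only 14 to 23 fragments in HET and 35 to 51 in WT. The counting intervals of HET 1 (0.34 to 0.80 FPKM) and WT 1 (0.56 to 1.11 FPKM) overlapped. That of HET 3 also overlapped that of WT 1, but that of HET 2 (0.17 to 0.51 FPKM) lay below those of all WT libraries. In the fit without the filter, over 31906 genes, the unadjusted limma p of Cabp7 was 0.0136. Among the 15391 genes of the main fit, 3.12% had HET wholly below WT. Cabp7 was chosen after its values were seen. Rims1 and Cabp4, also chosen after their values were seen, were, like Cabp2, listed at 0 in these 6 libraries.

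Of the 49 wider genes, 5 (10.2%) were listed in HOM, against 7.35% of the 15391 genes. In HOM against WT 4 of the 5 were called lower and 1 higher, where 65.4% of listed genes were called lower and 27.7% higher; nothing is read from these counts, since listing used the contrast. Their median change was -0.24, and that of all listed genes -0.22. Among listed genes 307 were called higher and 725 called lower, but 352 and 303 under median-ratio scaling and 353 and 285 under upper-quartile scaling. In HOM against HET 89 were called higher (8.17%) and 396 called lower, but 246 and 272 under median-ratio scaling and 306 and 223 under upper-quartile scaling.

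Rimbp2, which links calcium channels to release sites, fell most among the 5. It was at 0.96, 0.92 and 1.49 FPKM in HOM, at 2.39, 2.41 and 2.49 FPKM in HET and at 2.28, 2.51 and 2.78 FPKM in WT. The HOM libraries lay below all others, and being apart from WT is common to all listed genes. The change was -0.74 against WT (SE 0.12, limma adjusted p = 0.00471) and -0.70 against HET (SE 0.12, adjusted p = 0.00662). The call was kept under both scalings and without any single library in both comparisons.

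Ctbp2 encodes RIBEYE, the main protein of the ribbon, and from the same gene a corepressor of many cell types. It was at 8.91, 9.09 and 8.73 FPKM in HOM. In HET it was at 10.42 to 11.03 FPKM and in WT at 10.22 to 10.98 FPKM, without overlap, which against WT holds for all listed genes. Relative to WT it fell in HOM by 0.24 (SE 0.04, limma adjusted p = 0.00702). Under median-ratio scaling, with factors from listed genes only, the change was -0.04 (adjusted p = 0.459). Its call thus depended on the scaling, and which scaling is nearer the true level was not tested. Relative to HET it fell by 0.25 (limma adjusted p = 0.0115), a call lost without HET 2 (adjusted p = 0.0531) and under median-ratio scaling (-0.11, adjusted p = 0.138). The FPKM joins the transcripts of both products.

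The vesicle fusion gene Nsf changed by -0.16 in HOM against WT (limma adjusted p = 0.031) and by -0.10 against HET (adjusted p = 0.309), and it turned to 0.02 and 0.04 under median-ratio scaling. Its call against WT was also lost without HOM 1 (limma adjusted p = 0.0705), HOM 2 (0.0921), WT 1 (0.0954) or WT 2 (0.0789). The syntaxin gene Stx3, known from ribbon synapses, was at 6.84 to 7.13 FPKM in HOM, 6.27 to 6.56 FPKM in HET and 5.81 to 6.49 FPKM in WT. It rose by 0.14 in HOM against WT (limma adjusted p = 0.0424), a call lost when any single library was left out (adjusted p 0.0504 to 0.125). Under median-ratio scaling the rise was 0.33 (adjusted p = 0.00274), and against HET the difference was 0.11 (adjusted p = 0.141), or 0.25 with that scaling (adjusted p = 0.014).

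Genes with the most similar pattern were found by Pearson's r of log2(FPKM + 1), as a description. Over the 9 libraries and 621 listed genes at a mean of 5 FPKM or more, those nearest to Otof were Ccdc181 (r = 0.996), Trim45 (r = 0.996) and the stereocilia gene Loxhd1 (r = 0.995). Ccdc181 was at 9.65 FPKM in HOM, 15.03 in HET and 15.27 in WT on average, so a like pattern went with a smaller fall. Those nearest to Cacna1d were Tril (r = 0.976), the hair bundle gene Ptprq (r = 0.975) and the transcription factor gene Sall1 (r = 0.971). Over the 6 HET and WT libraries and 8906 genes, Marveld3, Cd47 and Fam126a were nearest to Slc17a8 (r = 0.989, 0.988 and 0.984) and Zkscan3, Ube2n-ps1 and Mak16 to Bsn (r = 0.989, 0.98 and 0.979). With so few libraries and so many genes, high r are found for most patterns, and the points share depth and the libraries that stood apart. The 621 genes were also all listed ones, apart from WT in HOM. A high r with Otof or Cacna1d is thus partly set by that choice.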

How the data were processed

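The deposited FPKM, named so per the file headers, are 1 column per library with 2 decimals. Per the submitters' processing notes the authors used DESeq2 and mm8. No source used here gives the aligner, counter or annotation. Identifiers were matched to GENCODE M21 (GRCm38), whose coordinates and exon lengths are given here. Blank rows of the HOM tables were dropped. Depth was recovered as the number of fragments that made low values of genes with up to 600 bp of exon whole. They were whole within 0.1 in at least 99.3% of values. This check is not independent, since depth was chosen by it. It used 21 to 27 values in each HOM library and 2122 to 2571 in each HET or WT library. Fragments recovered with these exon lengths summed to about 108% of depth in each HET and WT library, so fragment counts and their intervals are approximate. Each pair of groups had its own fit in limma 3.58.1 (R 4.3.3) with a mean-variance trend. The response was log2(FPKM + 1), and a gene entered if 3 or more of the 6 libraries had 1 FPKM. Adjusted p are Benjamini-Hochberg over all genes tested (threshold 0.05, two-sided). In HOM comparisons only listed genes could be tested, so p-values and intervals against WT are not free of that choice. Those against HET are not free of it either, as they use the same HOM libraries. Members, lists, markers and tests were chosen with earlier results of these data known. Genes named were the 5 members, the wider-list genes listed in HOM (1 of the 5 is not reported here), the 3 with the smallest p in HET against WT, the 3 nearest in pattern to each member, and Pou4f3; markers come from the marker lists, and other genes are said to be chosen after their values were seen. Alternatives were other scalings, pseudocounts, filters, variance models, groupings and left-out libraries. In HOM comparisons the scaling factors came only from the listed genes that passed the filter.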

Additional observations from a re-analysis of the deposited data

How the results depend on the processing

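Otof was called lower in HOM under all 14 alternatives in each comparison (-5.49 to -4.16 against WT, -5.38 to -4.05 against HET), and Cacna1d under all 14 against WT (-0.72 to -0.40) and 13 of 14 against HET. Leaving out single libraries gave 1 to 2 called members in HOM against HET, with Cacna1d between -0.73 and -0.52, and in HET against WT it gave Cacna1d -0.12 to 0.12, Rimbp2 -0.0868 to 0.0155, Ctbp2 -0.0085 to 0.0442 and Stx3 -0.00697 to 0.0617. Without HET 1 and WT 3 together Rimbp2 was 0.0239 in HET against WT. For HOM comparisons that removal is the same as leaving out WT 3 or HET 1. Nsf turned to 0.0217 (median-ratio) and 0.0433 (upper-quartile) in HOM against WT and to 0.0359 and 0.104 in HOM against HET. Genes called in HOM against WT were 655 and 638 under these scalings and 588 to 864 without single libraries; wider-list calls were 2 under each scaling and 3 to 4 without single libraries. In HOM against HET 116 to 431 genes were called without single libraries and 1 to 3 of the wider list. In HET against WT, 5 of 1131 genes were called with all 3 groups in one fit and 0 to 1 without single libraries. No comparison had a correlation over 0.1 in every same-numbered pair, so the numbers were not taken to pair the samples: correlations of deviations were 0.244, 0.0888 and 0.279 for HOM and WT, -0.271, 0.104 and -0.138 for HOM and HET, and -0.519, 0.286 and -0.471 for HET and WT, and 5, 1 and 1 of 6 samples were nearest to their own number, which for HOM and WT is a hint of pairing from the data. With a replicate block 304 genes were called in HOM against HET and 3 of the wider list in HOM against WT. The cause of these shifts was not tested. Otof in HOM rests on 35 to 138 fragments per library.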
